A study of Homo sapiens with 6 samples.

Results

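The genes described here form the machinery that takes a cell from G1 into S phase: the D-type cyclins CCND1, CCND2 and CCND3, the E-type cyclins CCNE1 and CCNE2, the kinases CDK2, CDK4 and CDK6, the retinoblastoma gene RB1, and E2F3. For each of these 10 genes, every peak of polyadenylated 3′ ends was taken whose summit lay in the annotated gene body or up to 4 kb past its 3′ end. This gave 170 of the 200023 peaks in the list, of which 134 had a −log10 q (the peak caller's adjusted p-value on a log scale) of at least 5 and are described below. The genes' peaks were taken by position, and only the cutoff used their height.

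The ends were mapped by poly(A) 3′-seq of IMR-32, an established human neuroblastoma cell line, in 2 libraries of cells given the solvent DMSO, 2 of cells given THZ531 at 400 nM for 2 h and 2 given the same dose for 6 h. The compound THZ531 binds covalently to and inhibits CDK12 and CDK13, kinases of transcription that are not among the 10 genes. In the kit used (QuantSeq REV), reads start where the poly(A) tail joins the transcript. The authors pooled the reads of every sample, which the methods do not list and which are assumed to be the 6 libraries, before they called peaks, so no peak could be assigned to DMSO or THZ531, to a replicate or to a strand, and the depth of each library is unknown. Nothing below therefore compares treatments, and no value has a replicate error. One cell line stands for the tumour type. All 10 markers of neuroblastoma and the sympathetic lineage that were looked up, such as PHOX2A, had a peak at a transcript end. The share was 64.1% over all protein-coding genes. Of the 10, 9 had a peak at the end of the canonical transcript, MYCN being the exception.

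In G1, D-type cyclins bind CDK4 and CDK6, and E-type cyclins bind CDK2. These kinases phosphorylate RB1, which in its unphosphorylated form holds E2F transcription factors inactive, and the released E2F proteins switch on the genes of DNA replication. A transcript is cleaved and given its poly(A) tail downstream of a polyadenylation signal (PAS), most often the hexamer AATAAA, and a gene with several such signals can give mRNAs with shorter 3′ UTRs or, where the signal lies in an intron, transcripts that lack the later exons.

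The sequences below are the 30 bases of GRCh38 that start at a PAS hexamer before the end of the canonical transcript, on the strand of the gene. Where several hexamers lay there, the one listed first by the study was taken, and among its copies the one nearest the expected place. The sequences are shown because the main 3′ ends of these genes are read against them, and the capitals mark the hexamer. CCNE2 is named without its sequence.
CCND1, chr11:69654454-69654483, plus strand: AATAAAactggtaaaaccccagcgtggtgc
CCND2, chr12:4305332-4305361, plus strand: AATAAActcaccttgacctaaattatctgg
CCND3, chr6:41934946-41934975, minus strand: AATAAAgatgattgtgaaataaaactggct
CCNE1, chr19:29824286-29824315, plus strand: AATAAAgataatactgtttttgagacagct
CDK2, chr12:55972759-55972788, plus strand: ATTAAAaaaatgtgcctagttttatagttc
CDK4, chr12:57747717-57747746, minus strand: AATATAgatttttaaatggcttttactttt
CDK6, chr7:92604915-92604944, minus strand: ATTAAAttccaagttttagcagaatgtgtt
RB1, chr13:48481865-48481894, plus strand: AATAAAttagttgttaagagtcttaatggt
E2F3, chr6:20493690-20493719, plus strand: AATAAAatgattttttttaagagttcaggc
The hexamer began 20 to 37 bases before the annotated end in all 10 genes, CCNE2 included. It was AATAAA in 7 of them, ATTAAA in CDK2 and CDK6, and AATATA in CDK4. The canonical ends of other genes were not searched in this way, so these counts have no background and describe only the sequences.

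Of the 10 genes, 9 had a peak, and CCND2 had none. Among all 20033 protein-coding genes treated by the same rule, 77.0% had a peak with −log10 q of at least 5. With no cutoff the share was 81.1%, and CCND2 still had no peak. The same 9 genes had a peak at a transcript end, defined as 200 bp upstream to 600 bp downstream of any annotated end of the gene, against 64.1% of protein-coding genes. All 9 also had a peak in that window around the canonical end, against 83.6% of the genes with any transcript-end peak. The absence of CCND2, a D-type cyclin of the same family as CCND1, covered its whole body (chr12:4269771-4305353) and the region past its end, including the AATAAA printed above. It means only that nothing there passed the peak caller, since the list holds no values below its threshold.

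Height is given as reads at the summit, the number of extended reads that the peak caller counted over the highest point of a peak, recovered here from its fold enrichment and p-value. The 95% Poisson intervals beside heights cover counting error only, as reads without molecular identifiers are not independent molecules. A height is not an expression level. The peak caller's duplicate setting is not given in the sources used here, and by default it keeps 1 read per start position and strand. The tallest peak of the whole list held 200 reads, the ceiling that this default sets for reads extended to 100 bp on both strands. Under that default, height counts distinct start positions, and a sharp end can stand lower than a diffuse one. A peak also needs more reads to pass where the local background, in reads per position over 10 kb, is high. The 134 peaks had a median of 16 reads and a range of 7 to 66, and 36 further peaks of these genes with 4 to 27 reads fell below the cutoff. The nearest values on either side of it were a −log10 q of 4.99 outside and 5.03 inside.

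**Figure D1:**
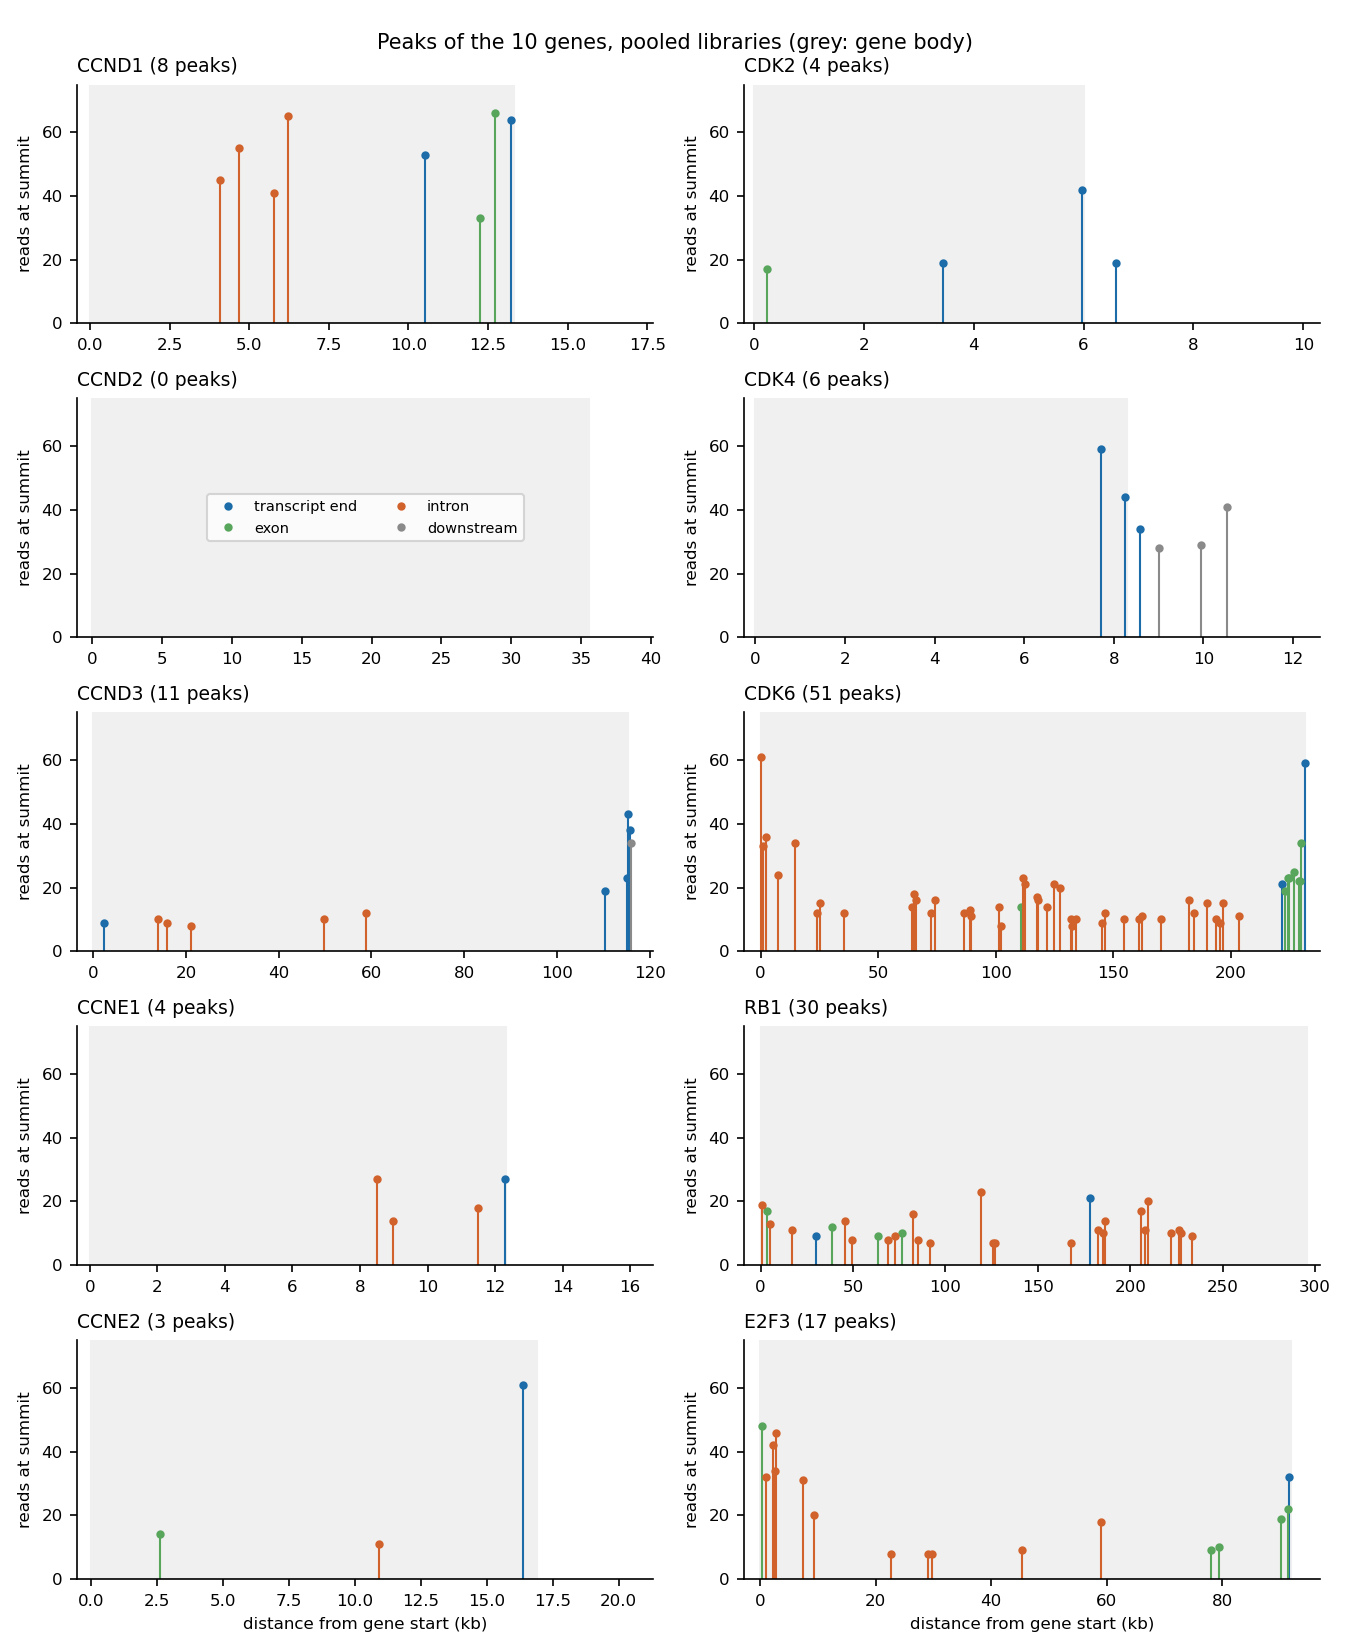
Each panel is 1 gene, with the distance of a peak's summit from the gene start (kb) on the x axis and its reads at the summit on the y axis, coloured by class, and with the gene body in grey. CCND2 is empty, CDK6 and E2F3 have tall intronic peaks near the start, and CDK6 has 51 peaks along its length.

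The tallest transcript-end peaks of the 9 genes ran from 21 reads in RB1 to 64 in CCND1, with a median of 43. The median over the 12541 detected intron-containing genes was 25, where detected means having a transcript-end peak. CCND1, CCNE2, CDK4 and CDK6 stood at percentiles of 97.6, 96.9, 96.2 and 96.2 of those genes, CCND3 at 85.9, CDK2 at 84.7, E2F3 at 68.5 and CCNE1 at 56.2. RB1, at 37.75, was the only one of the 9 below the middle. The end peaks of CCND1, CCNE2, CDK2 and CDK4 lie where a gene on the opposite strand is also annotated, as given below for each.

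Cyclin D1 is the regulatory partner of CDK4 and CDK6 and an unstable protein made in response to growth signals. CCND1 (chr11:69641156-69654474, plus strand) had 8 peaks. At the canonical end, the peak at chr11:69654324-69654471 held 64 reads (95% Poisson interval 49.3 to 81.7), and its 3′ edge, where the reads start, lay 3 bp before the annotated end and close to the AATAAA shown. A proximal peak at chr11:69651379-69651727 held 53 reads (39.7 to 69.3) at another annotated end, with CATAAA 23 bases before its edge. Between them, the 3′ UTR held peaks of 33 and 66 reads, the latter (51.0 to 84.0) at chr11:69653702-69653980. The intervals of the 53-, 64- and 66-read peaks overlap, so their heights could not be ordered. The last 3 of these UTR peaks, but not the proximal one, lie inside LTO1 on the opposite strand, and without strand the reads of the 2 genes cannot be told apart.

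The other 4 peaks of CCND1 were all in intron 3, after 64.9% of the coding bases. From 5′ to 3′ they held 45, 55, 41 and 65 reads, the last (50.2 to 82.8) at chr11:69647198-69647457. None had any of the 12 PAS hexamers in the 100 bp before its edge, and none was followed by an A-rich stretch, to which the oligo(dT) primer can also bind. The local background at these 4 peaks was 10.9 to 12.2 reads per position, against 7.90 at the canonical end. Among the 627 detected genes of the same length bin, whose median was 1 intronic peak, CCND1 stood at the percentile 96.25. The 4 peaks formed 2 neighbouring pairs, and with peaks closer than 200 bp merged in all genes, CCND1 had 2 intronic sites and stood at 78.0.

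Cyclin D3 is the third D-type cyclin. CCND3 (chr6:41934934-42050357, minus strand) had 11 peaks, 5 at transcript ends, 5 in introns and 1 downstream. The canonical end had the tallest, 43 reads (31.1 to 57.9) at chr6:41934938-41935070, followed by 38 reads at chr6:41934528-41934800 and 23 at chr6:41935223-41935322. A short isoform near the gene start had an end peak of 9 reads. A further peak past the end window, at chr6:41934255-41934382, held 34 reads. All 5 intronic peaks were low, at 8 to 12 reads, and lay before the start of the canonical transcript, within longer annotated isoforms, so that none of them was inside the canonical coding region. The tallest, at chr6:41991431-41991548, held 12 reads. A peak of 19 reads at chr6:41939844-41939955, after 47.3% of the coding bases, lay in the end window of an annotated short transcript that ends in intron 2. With a window of 100 bp to each side it was classed as intronic, and use of that transcript was not tested. By its full gene span of 115.42 kb, CCND3 had fewer intronic peaks than most genes of that length, 5 against a median of 10 (percentile 17.8). That span comes from the longer isoforms, as the canonical transcript covers only 6.86 kb. With the canonical transcript alone it had 1 intronic peak, so its low place holds only for the full span.

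The E-type cyclins activate CDK2 at the G1 to S transition. CCNE1 (chr19:29811991-29824312, plus strand) had 4 peaks. Its end peak at chr19:29824206-29824318 held 27 reads (17.8 to 39.3), and the peak in intron 6 at chr19:29820440-29820564, after 37.6% of the coding bases and with no hexamer, held the same number. Intron 7 held 14 reads and intron 11 held 18. CCNE2 (chr8:94879770-94896678, minus strand) differed in balance, with 61 reads (46.7 to 78.4) at its end, chr8:94880203-94880607, and 11 in intron 7. The intervals of the CCNE1 and CCNE2 end peaks do not overlap. The CCNE2 end lies inside INTS8 on the opposite strand, so its reads cannot be assigned by strand either. CCNE2 also had 14 reads in a coding exon at chr8:94893946-94894124.

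CDK2, the partner of the E-type cyclins, and CDK4, a partner of the D-type cyclins, are short genes of 6.01 and 8.29 kb and had no intronic peak. CDK2 (chr12:55966781-55972789, plus strand) had 42 reads (30.3 to 56.8) at its canonical end, chr12:55972444-55972830. A peak of 19 reads at chr12:55970196-55970298 lay in the end window of a short isoform that is annotated to stop in intron 5. It came after 65.8% of the coding bases, with no hexamer and with 21 A among 25 bases downstream. With a window of 100 bp to each side it was classed as intronic, and use of that isoform was not tested. Another of 19 reads at chr12:55973317-55973588 had its edge 799 bp past the canonical end, which is also the last annotated end. Its summit fell within the 600 bp window of that end, and with a window of 100 bp it was classed as downstream. A coding exon held 17. PMEL lies on the opposite strand at 3 of these 4 peaks, the one past the end being the exception.

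CDK4 (chr12:57747727-57756013, minus strand) had 6 peaks, all in the last part of the gene or past it, and all at places where TSPAN31 lies on the opposite strand. The tallest, 59 reads (44.9 to 76.1) at chr12:57748136-57748358, had its edge 409 bp before the annotated end and no hexamer. The peak nearest the canonical end, at chr12:57747640-57747841, held 44 reads (32.0 to 59.1), with its edge 87 bp past that end. Past it came 34 reads, and the 3 downstream peaks held 28, 29 and 41, the tallest at chr12:57745397-57745549. None of these can be placed on CDK4 rather than TSPAN31 from this list. Of the 9 genes with an end, CCND3 and CDK4 alone had a peak with its summit over 600 bp past their last annotated end. That is 2 of 9, against 31.6% of all detected genes.

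CDK6, the other kinase partner of the D-type cyclins, is far longer (chr7:92604921-92836573, minus strand, 231.65 kb) and had 51 peaks, 41 of them intronic. The 627 detected genes of similar length had a median of 16 intronic peaks, which put CDK6 at the percentile 98.3. The 41 peaks were spread over introns 1 to 5, with 3 in intron 1, 5 in intron 2, 10 in intron 3, 15 in intron 4 and 8 in intron 5. Per kb of intron, intron 1 had the most, 1.08, and intron 2 the fewest, 0.0858. Transcripts ending in introns 2 to 5 would contain 23.8% to 66.2% of the coding bases, and those ending in intron 1 none, because it lies before the start codon.

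The tallest intronic peak of CDK6 stood 0.339 kb from the gene start, at chr7:92836030-92836329, with 61 reads (46.7 to 78.4) and no hexamer. The others in intron 1 held 33 and 36 reads. Further on, 37 intronic peaks beyond 10 kb held 8 to 34 reads with a median of 12, the tallest at chr7:92821640-92821826 in intron 2. In intron 4, peaks of 23, 21, 21 and 20 reads stood out among the rest. Of the 38 intronic peaks with no gene on the opposite strand, 25 had a hexamer, 14 of them AATAAA. For the tallest intron 4 peak with an AATAAA 15 to 30 bases before its edge (20 reads, chr7:92708979-92709112) and for a second one (16 reads, chr7:92718471-92718598), the sequence is given below from the hexamer, in capitals, on the minus strand. The last is on the plus strand, in intron 1 of E2F3, and precedes the edge of an 8-read peak.
CDK6 intron 4, chr7:92708975-92709004: AATAAAaatatatttatttaaatcaaataa
CDK6 intron 4, chr7:92718464-92718493: AATAAAttgtttatgcttgtttcctcttcg
E2F3 intron 1, chr6:20431727-20431756: AATAAActacctgcacacaactccttgtct
Hexamers lay 26 and 23 bases before the edge in CDK6, and 18 in E2F3.

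The 3′ UTR of CDK6, 10219 bases long, held 9 of its peaks. The end peak at chr7:92604926-92605166 had 59 reads (44.9 to 76.1), with its edge 5 bp before the annotated end. Of the other 8 peaks, the nearest to the coding region, with 21 reads, ended 674 bases into the UTR, at 6.60% of its length. It falls in the window of another annotated end. The remaining 7 had edges at 2045, 3025, 3668, 5687, 7758, 8264 and 8504 bases and 19 to 34 reads, the tallest at chr7:92606636-92606754. The interval of the end peak overlaps that of the 34-read peak but not those of the 7 lower ones.

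RB1 (chr13:48303744-48599436, plus strand) is the pocket protein that the G1 kinases phosphorylate. It is the longest member, 295.69 kb in this annotation, because some isoforms run past the canonical end at 48481890 and through RCBTB2, a gene on the opposite strand. Of its 30 peaks, 24 were classed as intronic, at the middle of its length bin (median 25, percentile 48.0), and 10 of the 24 lay past the canonical end window, 8 of these inside RCBTB2. The end peak at chr13:48481772-48481889 was the lowest of the 9 genes, 21 reads (13.0 to 32.1), with its edge 1 bp before the annotated end. The tallest intronic peak, 23 reads (14.6 to 34.5) at chr13:48423038-48423167, was in intron 17 after 60.9% of the coding bases. It had AATAAA 25 bases before its edge on the RB1 strand, but LPAR6 lies there on the opposite strand. The remaining intronic peaks of the canonical transcript held 7 to 19 reads, in introns 1, 2, 6, 11, 12, 17 and 23. The 10 past the end held 9 to 20 reads, the tallest at chr13:48513267-48513378. Coding exons held 4 peaks of 9 to 17 reads, and an annotated end in intron 2 held 9.

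Of the 11 intronic RB1 peaks with no gene on the opposite strand, 5 had a hexamer and 6 were followed by at least 18 A in 25 bases. To show what such places look like, 2 stretches following intronic peaks are given, with the 25-base window in capitals. The RB1 one, on the plus strand past the canonical end, has 24 A and follows a peak of 11 reads. The CDK6 one, on the minus strand in intron 5, has 23 A and follows a peak of 11 reads.
RB1, chr13:48486215-48486244: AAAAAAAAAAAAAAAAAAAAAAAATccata
CDK6, chr7:92632926-92632955: AAAAAAAAAAAAAAAAAAAAAAGATcttta
Neither peak had a hexamer.

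E2F3 encodes an activating E2F factor, the kind that RB1 restrains. E2F3 (chr6:20401879-20493714, plus strand) had 17 peaks, 11 of them in intron 1, which spans 77.22 kb after 28.2% of the coding bases, and none in any other intron. Its end peak at chr6:20493433-20493712 held 32 reads (21.9 to 45.2), with its edge 2 bp before the annotated end. The tallest peak of the gene was in the 5′ UTR exon, 48 reads (35.4 to 63.6) at chr6:20402022-20402205. Within 10 kb of the start, intron 1 then held peaks of 32, 42, 34, 46, 31 and 20 reads, the tallest (33.7 to 61.4) at chr6:20404565-20404801. Beyond 10 kb the 5 remaining peaks held 8, 8, 8, 9 and 18 reads. The last, at chr6:20460898-20461008, had the largest fold enrichment of these 11, 13.2, against 5.18 for the 46-read peak, on local backgrounds of 0.44 and 8.08. The 3′ UTR also held peaks of 19 and 22 reads short of the end, and coding exons held 9 and 10.

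**Figure D2:**
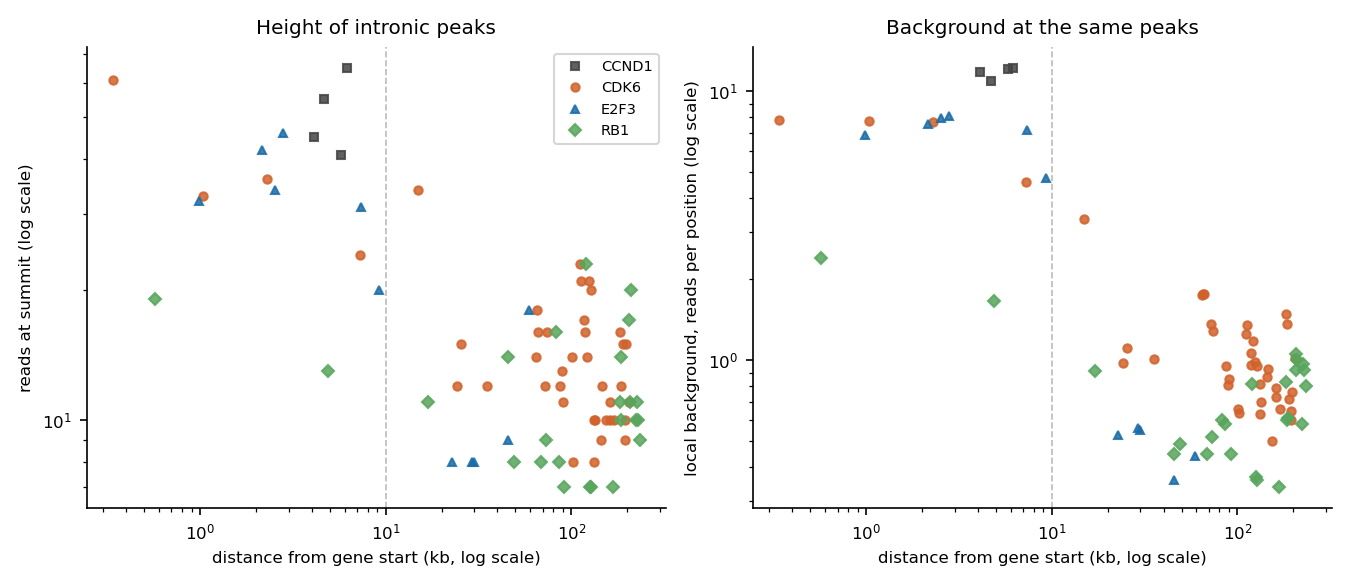
Intronic peaks of CCND1, CDK6, E2F3 and RB1, with distance from the gene start (kb, log scale) against reads at the summit (left, log scale) and against local background in reads per position (right, log scale), and a dashed line at 10 kb. In CDK6 and E2F3 both are lower far from the start, with median heights of 34.5 reads within 10 kb and 12 beyond in CDK6, and of 33 and 8 in E2F3.

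In CDK6 and E2F3 both height and background were lower farther from the start, and so they were over all protein-coding genes. Over all genes, median reads of intronic peaks were 17 within 10 kb and 10 beyond 50 kb, on backgrounds of 1.92 and 0.58. The 2 RB1 peaks within 10 kb had a median of 16 reads on 2.035, against 10 on 0.6 beyond 50 kb. In rank over its 24 intronic peaks, RB1 showed no such fall. Over the 41 intronic peaks of CDK6, Spearman's rho with distance from the start was -0.55 for reads and -0.65 for background, but 0.14 for fold. Over the 11 of E2F3, it was -0.76 for reads, -0.84 for background and 0.74 for fold. Over the 24 of RB1 all 3 values lay between -0.02 and 0.17. Peaks of a gene share its libraries and overlapping 10 kb background windows, and a peak in dense background needs more reads to be listed, so these values are descriptions only.

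Taking the 9 genes together, the 18 intronic peaks within 10 kb of the start had a median of 33.5 reads on a median background of 7.63, against 17 reads and 1.92 over all protein-coding genes. Of these 18, 5 had a hexamer (27.8%, Wilson 95% interval 12.5 to 50.9), against 53.8% of such peaks in all genes, and 12 had neither a hexamer nor at least 18 A in 25 bases downstream (66.7% against 32.9%). Farther than 50 kb from the start the median was 11.5 reads, and 24 of the 38 peaks with no opposite-strand gene had a hexamer (63.2%, 47.3 to 76.6, against 58.8%). The 18 come from 5 genes, with 14 of them in CCND1, CDK6 and E2F3, and peaks of 1 gene are not independent.

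**Figure D3:**
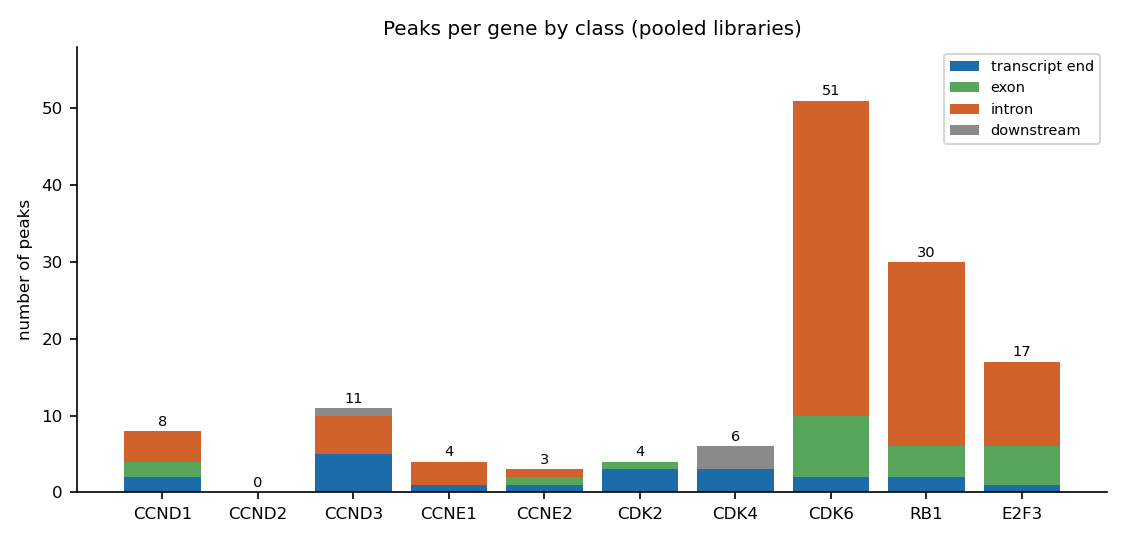
Number of peaks per gene (y axis) stacked by class of the summit for the 10 genes (x axis), with the total above each bar. CDK6 and RB1 hold 41 and 24 of the 89 intronic peaks, and CDK2 and CDK4 hold none.

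Of the 134 peaks, 89 were intronic (66.4%, 58.1 to 73.9), against 64.0% over all protein-coding genes, and 20 were at transcript ends (14.9%, 9.87 to 21.9), against 20.2%. Exons outside the ends held 21 (15.7%, 10.5 to 22.8), against 10.3%, and downstream regions 4 (2.99%, 1.17 to 7.42), against 5.51%. The balance turned at a −log10 q of at least 20, where 28.6% of the 14 remaining peaks were intronic and 57.1% were at transcript ends. With a narrower class of 100 bp around each annotated end, the share at ends was 5.97%. The median height was 33 reads at transcript ends, 19 in exons and 12 in introns, against 19, 17 and 12 over all protein-coding genes. An intronic peak was found in 7 of the 10 genes, against 62.4% of all intron-containing protein-coding genes, and 7 of the 9 detected ones against 79.7%.

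In 5 of the 9 detected genes the tallest intronic peak was at least as tall as the tallest end peak, against 30.5% of detected intron-containing genes. These were CCND1 (65 against 64 reads), CCNE1 (27 and 27), CDK6 (61 and 59), RB1 (23 and 21) and E2F3 (46 and 32). The 23-read RB1 peak lies where LPAR6 is on the opposite strand, and the other intronic RB1 peaks held at most 20 reads. Without that peak RB1 would not be among the 5. The CCND1 and CCNE2 ends lie inside LTO1 and INTS8 on the opposite strand, so their reads cannot be assigned either. The intervals overlap within all 5 pairs, so no intronic peak exceeded its end peak beyond counting error. In CCND3 and CCNE2 the end peak was higher, 43 against 12 and 61 against 11, with intervals that do not overlap.

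**Figure D4:**
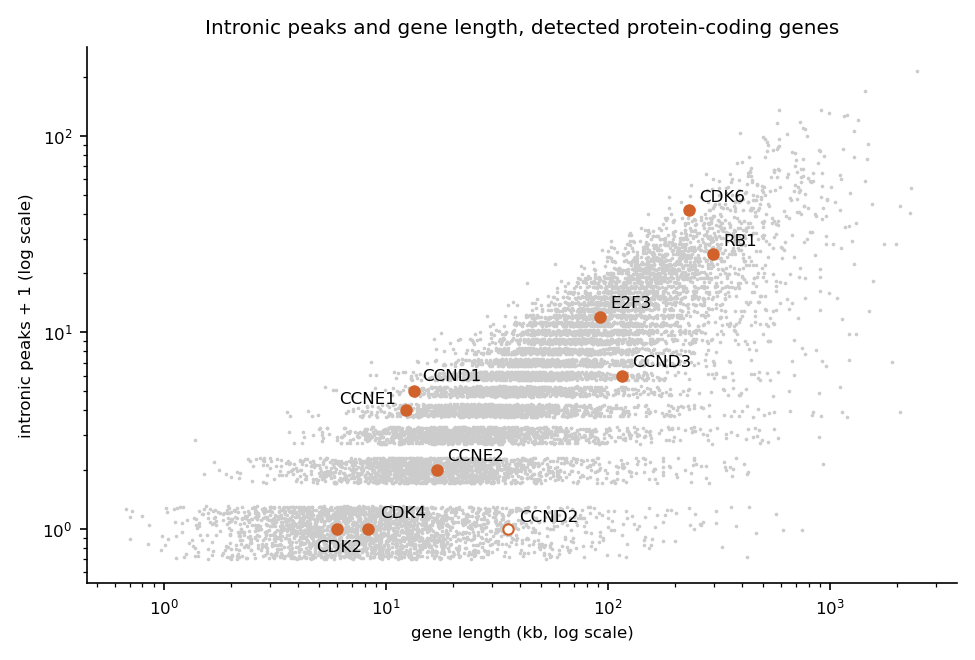
Gene length (kb, log scale) against the number of intronic peaks plus 1 (log scale), with the 12541 detected protein-coding genes in grey (shifted at random by a small amount) and the members in orange, CCND2 as an open circle. CDK6 and CCND1 lie high for their length and CCND3 lies low. With peaks closer than 200 bp merged, CCND1 has 2 intronic sites in place of 4. The length of CCND3 is its full gene span, far longer than its canonical transcript of 6.86 kb.

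A hexamer in the 100 bp before the 3′ edge was present at 58 of the 105 member peaks with no opposite-strand gene (55.2%, 45.7 to 64.4), against 63.1% over all protein-coding genes. The share was 84.6% at transcript ends (11 of 13) and 50.7% in introns (37 of 73, 39.5 to 61.8), against 80.9% and 57.7% over all genes. In exons it was found at 9 of 18, against 69.1%. The 12 hexamers were those that the study lists, searched on the gene's strand, and a match describes letters in a window and not a used site. Few member peaks had 22 or more A in the 25 bases downstream, 4 of 105 (3.81%), against 4.41%. With at least 18 A the shares were 21.9% and 21.7%.

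An mRNA that ends before the canonical end has a shorter 3′ UTR and lacks any miRNA seed site beyond that point. The mature miRNAs below, from RefSeq (GRCh38.p14), were chosen after the values were seen, as well-known regulators of G1 genes, and no miRNA was measured. Capitals mark the seed, bases 2 to 8.
hsa-miR-15a-5p: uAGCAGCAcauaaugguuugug
hsa-miR-16-5p: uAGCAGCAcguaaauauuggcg
hsa-miR-34a-5p: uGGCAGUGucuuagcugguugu
hsa-miR-29a-3p: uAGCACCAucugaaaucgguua
hsa-miR-26a-5p: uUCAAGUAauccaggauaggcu
hsa-let-7a-5p: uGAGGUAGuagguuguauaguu
The miR-15a and miR-16 seeds are identical. The sites searched on the transcript strand were TGCTGCT for both, CACTGCC for miR-34a, TGGTGCT for miR-29a, TACTTGA for miR-26a and CTACCTC for let-7a. In 25965 windows of 1000 bases of 3′ UTR, 14.2%, 9.52%, 8.74%, 7.57% and 6.02% held them in that order.

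**Figure D5:**
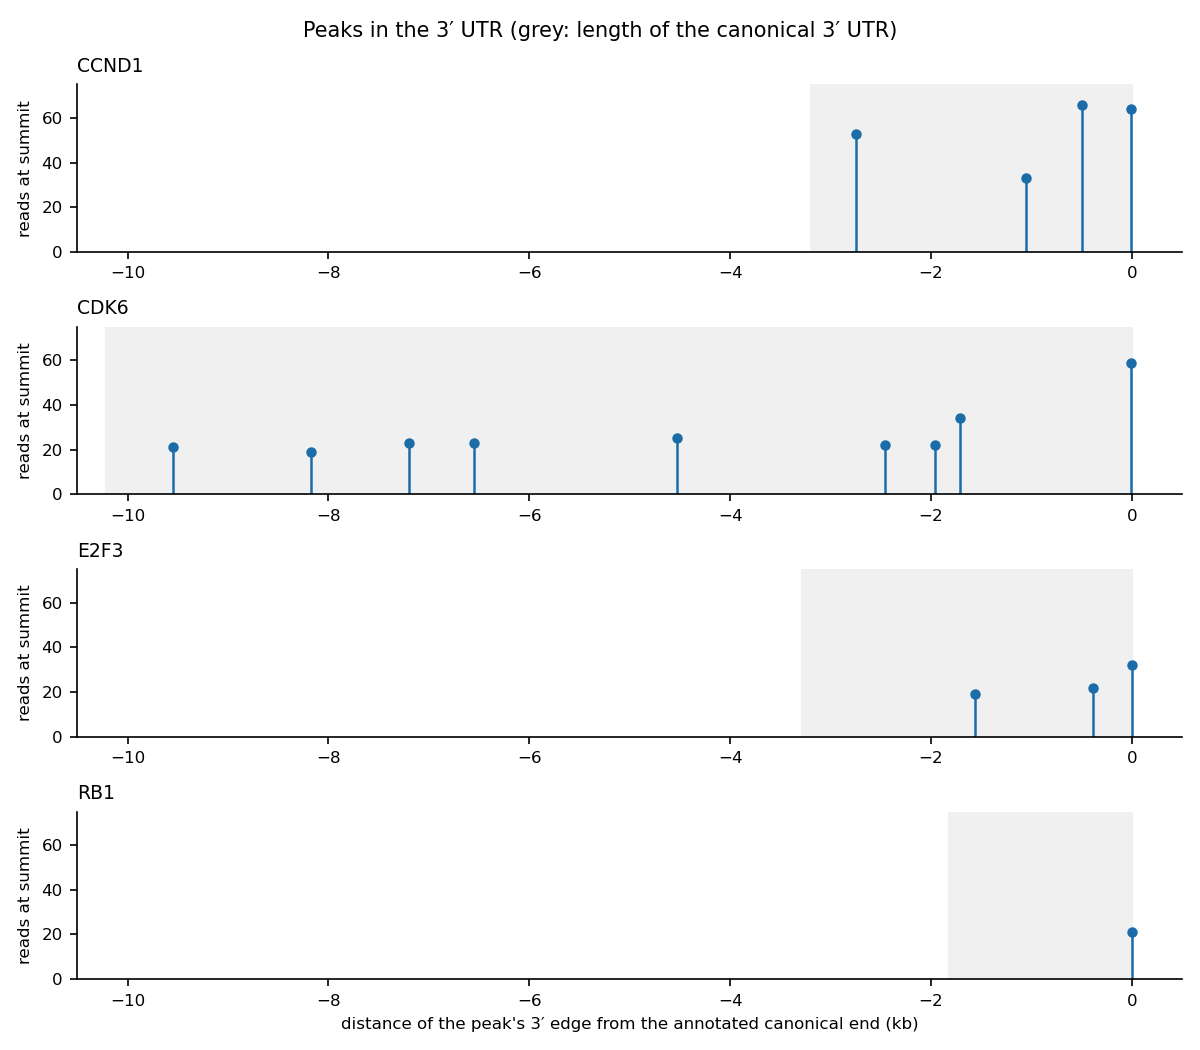
Distance of the 3′ edge of each peak in the 3′ UTR from the annotated canonical end (kb, x axis) against reads at the summit (y axis) for CCND1, CDK6, E2F3 and RB1, with the length of the canonical 3′ UTR in grey. CDK6 has 9 peaks over its UTR, CCND1 4, E2F3 3 and RB1 1. Of the CCND1 peaks, 3 lie inside LTO1 on the opposite strand.

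The CDK6 3′ UTR had 2 sites for miR-15/16, at 5473 and 6383 bases, 2 for miR-34a, at 1088 and 9181, 2 for miR-29a, at 8707 and 9138, and 2 for miR-26a, at 7088 and 9018. All 8 lay beyond the edge of its most proximal peak at 674, which held 21 reads. That edge is at 6.60% of the UTR, so nearly all of the UTR lies beyond it. All 8 also lay before the edge of the end peak at 10214, which held 59 reads. In CCND1, whose UTR is 3192 bases long, the single miR-15/16 site at 2033 lay beyond the proximal edge at 445. It lay before the edges at 2137, 2698 and 3189. In E2F3, with 3284 bases, the miR-15/16 site at 2491 and the miR-34a site at 2730 lay between the peak edges at 1720 and 2893. In CCND3 the miR-15/16 site at 614 was before both edges. CCNE1, with 1 peak in its UTR, carried miR-15/16 sites at 247 and 485 and a miR-26a site at 265. The sites in CCNE2 (miR-34a at 123), CDK2 (miR-29a at 426) and RB1 (miR-26a at 815) also lay before the only peak edge of their UTR, and CDK4 had no site. CCND2, with no peak, had 4 sites: miR-15/16 at 1764, miR-29a at 906 and 2559, and miR-26a at 1397. None of the 10 UTRs held CTACCTC, which says only that these letters are not in them. RB1 had a single peak in its 3′ UTR of 1819 bases, at the end, so that the list showed no shortened RB1 UTR.

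The rest of the pathway was read in the same way. The 25 other G1/S genes were other E2F factors and partners, RB-like proteins, CDK inhibitors, S phase cyclins and their regulators. Of them, 23 had a peak and 20 had one at a transcript end, against 77.0% and 64.1% of all protein-coding genes. An intronic peak was found in 19, against 62.4% of intron-containing genes. In 3 of the 20 the intronic peak was at least as tall as the end, against 30.5% of detected intron-containing genes. The tallest end peaks ran from 16 reads, in E2F8 and AMBRA1, to 82 in CDKN1B, which encodes the CDK inhibitor p27, with a median of 32.5. The 5 with no end peak were E2F1, CDKN2A, CDKN2B, CDKN2C and CCNA1, named after their values were seen. CDKN2A, CDKN2B and CDKN2C encode inhibitors of CDK4 and CDK6. CDKN2D, which encodes another, had an end peak of 27 reads. CDKN2B had no peak at all, CCNA1 had none that passed the cutoff, and CDKN2A had 1, in an intron. E2F1 had 9 peaks, 7 of them intronic, and CDKN2C had 9, with 3 in exons, 2 in introns and 4 downstream. All 4 mitotic cyclin and CDK1 genes had an end peak, of 32 to 51 reads, against 64.1% of all protein-coding genes. All 4 also had an intronic peak, against 79.7% of detected intron-containing genes, and it was taller than the end in none.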

How the data were processed

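Poly(A) 3′-seq libraries of 6 IMR-32 samples (2 DMSO, 2 THZ531 2 h, 2 THZ531 6 h) were used as the authors' single list of peaks. Per the study's methods and processing notes, the authors trimmed reads with bbduk, mapped them to GRCh38 with STAR 2.5.1b, keeping up to 20 placements, merged all samples and called peaks with MACS2 2.1.1 (reads extended to 100 bp, no control). The deposited fold enrichment is the ratio of pileup plus 1 to local background plus 1. For each summit the deposited columns also hold the −log10 of its p-value and q-value, and a score (10 times −log10 q) that was not used.

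Pileup and background were solved from fold and −log10 p, which MACS2 takes as a Poisson tail. On simulated data, 100% of 15923 peaks were recovered, and the largest misfit on the real list was 0.000172. Depth per library is unknown. Main values used −log10 q of at least 5. Classes came from Gencode release 44 (the study used 27), in the order transcript end, exon, intron and downstream (up to 4 kb). PAS hexamers were searched in the 100 bp before the 3′ edge. An A stretch was at least 22 A in 25 bases within 50 bp downstream. Percentiles count ties as 0.5. Those of intronic counts were taken within 20 bins of gene length, and those of end heights over all 12541 detected intron-containing genes. Intervals are Wilson for shares and exact Poisson for reads. No test was run, because groups and replicates are pooled. For each member the text gives the tallest end, intronic, exonic and downstream peak. The members and lists were chosen with earlier results of these data known. Alternatives were other cutoffs, windows, hexamer sets and A minima. Python 3.11.15, scipy 1.17.1 and pysam 0.24.0 were used.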

Additional observations from a re-analysis of the deposited data

How the results depend on the processing

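No paired analysis was possible because every library went into 1 pooled list, and leaving out a replicate was not possible for the same reason. With −log10 q of at least 20 in place of 5, 14 peaks were left in place of 134, with 28.6% in introns against 66.4%, 57.1% at transcript ends and 0% before an A stretch, and 4 genes in place of 7 had an intronic peak, by construction of a stricter list. When transcript ends reached only 100 bp to each side, 5.97% of peaks were in that class, against 14.9%. Hexamer shares were 38.1% with AATAAA and ATTAAA alone and 39.0% with the window ending at the summit, against 55.2%, and A stretches followed 21.9% of peaks when 18 A sufficed and 0.98% once peaks with a stretch and no hexamer were removed, against 3.81%. Shares and gene counts under the other alternatives stayed within 1.5 times, including the canonical transcript alone, an alternative chosen after seeing the data (118 peaks, 65.3% in introns, 10.2% at ends). Of 180 single-gene counts under alternatives, 140 stayed within 1.5 times and 40 did not. The causes of the remaining shifts were not tested. Heights saturate where duplicates are dropped, reads with several placements were kept at mapping, and reads of genes on opposite strands cannot be told apart.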
